A study of Mus musculus with 6 samples.

Results

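The immediate-early and heat-shock genes described here are 32 features of the 32286 in each deposited matrix, found by matching the gene symbols of the feature lists to a set of 32 names. By what their proteins do they were put in 5 groups: 7 AP-1 and related basic leucine zipper factors (Fos, Fosb, Jun, Junb, Jund, Atf3, Maff), 8 factors of the EGR, NR4A and KLF families (Egr1, Egr2, Egr3, Nr4a1, Nr4a2, Nr4a3, Klf6, Klf10), 4 other induced regulators (Ier2, Ier3, Ier5, Csrnp1), 7 genes of feedback and growth arrest (Dusp1, Btg2, Zfp36, Gadd45b, Gadd45g, Socs3, Ppp1r15a) and 6 heat-shock genes (Hspa1a, Hspa1b, Hspb1, Hsph1, Dnajb1, Hsp90aa1). All 32 had at least 26 UMIs (unique molecular identifiers, each marking 1 captured transcript) in the endothelial cells of every library. The cells came from brain microvessels of C57Bl6 mice in which the tight junction gene Cldn5 was deleted in only some endothelial cells, and were profiled by droplet single-cell RNA sequencing (10x Genomics Gene expression v3.1). The 3 Cldn5 iECKO libraries came from mice that carried the Cdh5-creERT2+ transgene together with both Cldn5 fl/fl and R26 YFP/YFP, in which the Cdh5 promoter places the tamoxifen-dependent recombinase in endothelial cells, and the 3 control libraries from Cldn5 fl/fl mice that also had R26 YFP/YFP but not the recombinase. Mice of both groups carried the floxed Cldn5 and reporter alleles and were gavaged with tamoxifen on 3 consecutive days when they were about 3 months old. Whether each library is 1 mouse, and what a replicate number stands for, is not given in the labels, so a p-value below measures the spread between libraries.

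Immediate-early genes are transcribed within minutes of a stimulus without new protein synthesis: kinase cascades switch on factors already bound at their promoters, and the proteins made, among them AP-1 and EGR factors, regulate later genes, while phosphatases and mRNA-destabilising proteins made in the same wave end the response. Heat-shock genes encode chaperones that are induced by heat shock factor when unfolded proteins accumulate. Both sets are known to be induced by enzymatic dissociation of tissue as well as by signals in the animal, such as shear stress and inflammation in endothelium. Here all cells had been through 2 enzyme steps, collagenase II before and collagenase IV with TrypLE after magnetic-bead capture of PECAM1-bearing fragments, and no undissociated sample was analysed here, so transcripts made in the animal and transcripts made during preparation cannot be told apart.

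The 6 libraries held 2714 to 7420 barcodes and 15727366 to 49350802 UMIs each, and 81.3% to 95.8% of the barcodes passed the filters. The cells used included 21979 endothelial cells (1898 to 4817 per library), of which 2261 were classed arterial, 13597 capillary and 2441 venous, 652 smooth muscle-like cells (28 to 244), 671 microglia-like cells (36 to 171) and 365 pericyte-like cells (39 to 83), named from marker genes and clustered without the 32 genes. Values are counts summed over the cells of a class in a library, scaled to a common total with edgeR's TMM factors and given as CPM. UMIs are counted at transcript ends, so no length enters them, but capture can differ between genes. Cldn5 had 2819, 2270 and 2839 CPM in endothelial cells of iECKO libraries 1, 2 and 3, against 4739, 4271 and 4898 CPM in control libraries 1, 2 and 3, as the labels require, while the reporter transcript had 0 UMIs in every library. The rRNA-linked transcript Gm42418 took 7.76, 15.9 and 2.94% of endothelial UMIs in iECKO libraries and 7.78, 18.5 and 2.73% in control libraries, by replicate number rather than by group. Any 2 libraries shared 0 to 16 cell barcodes.

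In brain endothelial cells the 26 immediate-early genes together made up about 1% of all UMIs, and the 6 heat-shock genes 0.133% to 0.353%. The AP-1 genes Jun, Jund and Junb led the list with means of 1651, 1344 and 1075 CPM over the 6 libraries, followed by the small heat-shock protein gene Hspb1 at 952 CPM and Fos, the partner of Jun in the AP-1 dimer, at 912 CPM. Next came Btg2, whose protein recruits the deadenylation machinery, at 691 CPM, Dusp1, which encodes a phosphatase that turns off MAP kinases, at 674 CPM, and the zinc finger factor Egr1 at 609.6 CPM. At the low end stood Csrnp1 with 20.1 CPM, Nr4a3 with 7.14 CPM and Egr2 with 2.90 CPM, the last counted from 26 to 120 UMIs per library. The spread between libraries differed by gene: Klf6 lay within 446 to 511 CPM, whereas Maff lay within 18.2 to 123 CPM.

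**Figure D1:**
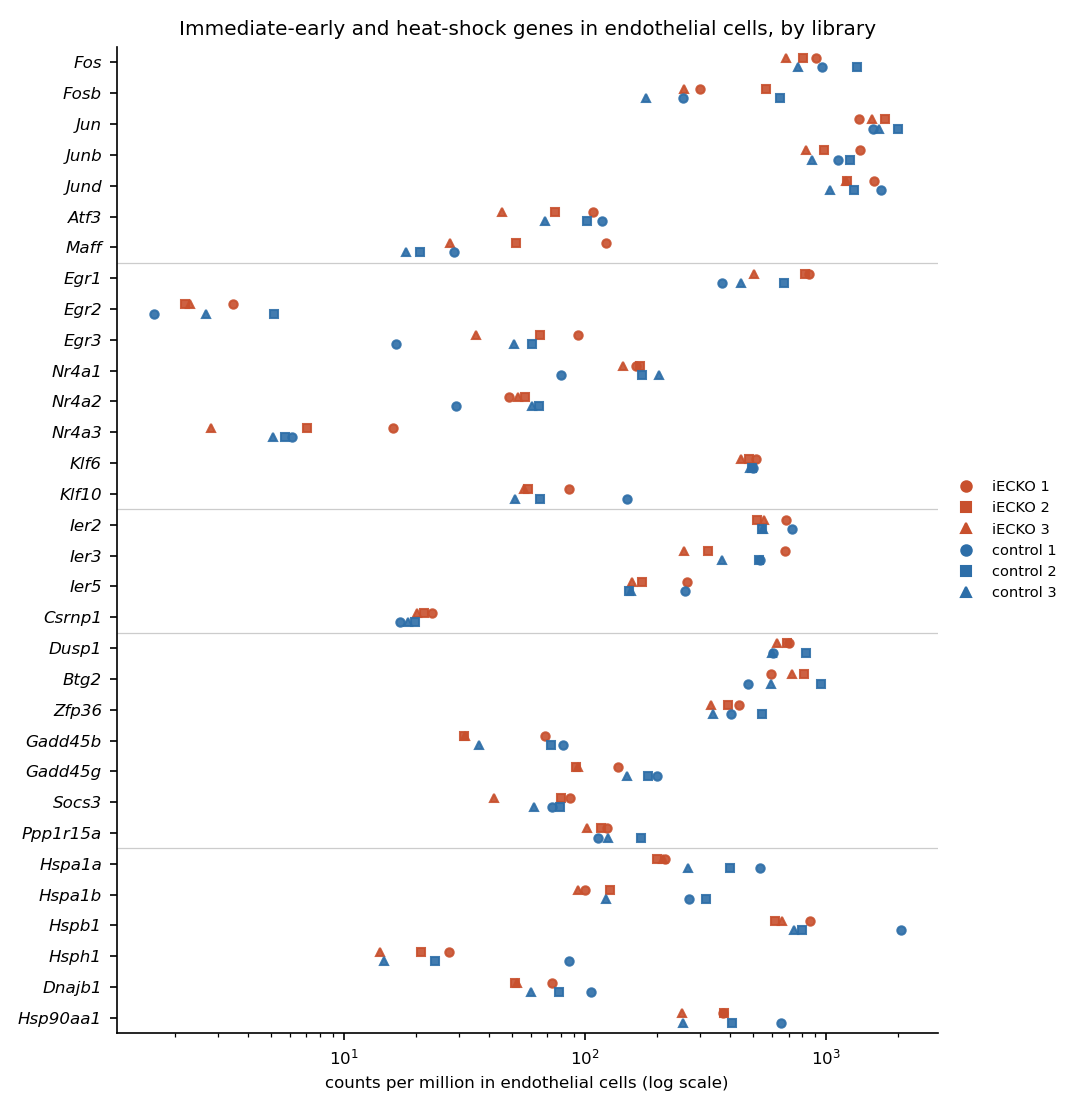
CPM on a log axis for each of the 32 genes in endothelial cells, one point per library, iECKO libraries and control libraries side by side, with genes ordered within their 5 groups. Jun, Jund and Junb are the most abundant, Egr2 and Nr4a3 the least, and the points of both groups mix for most genes, while Hspa1a and Gadd45g lie lower in all 3 iECKO libraries.

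Counts of the members were positively correlated from cell to cell. When every endothelial cell was thinned to 2000 UMIs, the median number of immediate-early UMIs per cell was 13, 12 and 12 in iECKO libraries and 10, 12 and 11 in control libraries (replicate numbers 1, 2 and 3 in that order here and below), while the 10% of cells with the fewest held at most 2 to 4 and the 10% with the most at least 36 to 44. The variance of this sum over cells was 11.5 to 17.3 times its mean. The median heat-shock sum was 2, 2 and 2 in iECKO libraries and 5, 2 and 2 in control libraries, with control library 1 above the other 5. Of the 496 pairs of members, 153 could be compared because both genes had a UMI in at least 10% of these cells in every library, and none of the 153 had a mean Pearson correlation under 0. Pairs of genes outside the list were not counted, so this only describes the members. The AP-1 genes were the most alike: Fos with Junb gave a mean r of 0.64 (0.59 to 0.69 over the 6 libraries), and Jun with Junb and Fos with Jun gave 0.57 each. The median r was 0.27 over 105 pairs of immediate-early genes, 0.15 over the 3 measurable pairs of heat-shock genes and 0.17 over the 45 mixed pairs. The immediate-early and heat-shock sums of a cell correlated at r = 0.37 to 0.45 in iECKO libraries and 0.48 to 0.61 in control libraries. These values are across cells of 1 library, which share its preparation, and are descriptions.

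Outside the list, the genes most like the immediate-early sum, among 2505 genes detected in at least 10% of thinned endothelial cells in every library, were the flow-responsive factors Klf2 (mean r 0.46, 0.30 to 0.60 over libraries) and Klf4 (0.39), then Tpt1 (0.37), the translation start factor Eif1 (0.35), the histone gene H3f3b (0.34), the ubiquitin gene Ubb (0.32), the ribosomal genes Rps27, Rps29 and Rps23 and the ferritin gene Fth1 (each 0.31). The heat-shock sum was most like Tpt1 (0.34), Klf2, Ubb and Eif1 (each 0.32), H3f3b (0.31), Rpl41, Rps27 and Rps29 (each 0.29) and Rpl9 and Rps23 (each 0.28). The lowest values belonged to Gm42418 (−0.43 with the immediate-early sum), Lars2 (−0.40) and the barrier transporters Slco1a4 (−0.35) and Slco1c1 (−0.32). Per library, the immediate-early sum correlated with the share of Gm42418 at −0.38 to −0.50, with the log of the cell's UMIs before thinning at 0.20 to 0.44, and with its mitochondrial share at −0.11 to 0.30. Cells with few immediate-early UMIs were thus also cells with fewer UMIs and more rRNA-linked transcript, and the part of either in the correlations was not tested.

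Among the cell classes, microglia carried the highest share of immediate-early transcripts and pericytes the lowest. Of the UMIs of microglia, immediate-early genes took 2.05, 2.53 and 2.23% in iECKO libraries, against 1.99, 2.92 and 2.00% in control libraries. In smooth muscle cells their share was 1.69, 1.34 and 1.54% in iECKO libraries, against 1.22, 1.87 and 1.34% in control libraries, and in pericytes it was 0.372, 0.293 and 0.214% in iECKO libraries, against 0.300, 0.247 and 0.204% in control libraries. Endothelial cells held 1.07, 0.985 and 0.975% in iECKO libraries, against 0.995, 1.15 and 0.993% in control libraries. Neither microglia nor pericytes overlapped the endothelial range in any library, and every smooth muscle library lay above the endothelial range. The order was the same at a fixed depth of 2000 UMIs per cell, where the median immediate-early sum was 36, 47 and 43 in iECKO libraries and 37, 57 and 35 in control libraries for microglia, 29.5, 25.5 and 28 in iECKO libraries and 21, 39 and 21.5 in control libraries for smooth muscle cells and 4, 3 and 3 in iECKO libraries and 3, 3 and 2 in control libraries for pericytes. Heat-shock genes spread less between classes, at 0.107% to 0.297% of microglial, 0.190% to 0.317% of smooth muscle, 0.0623% to 0.273% of pericyte and 0.133% to 0.353% of endothelial UMIs, and these ranges overlapped.

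**Figure D2:**
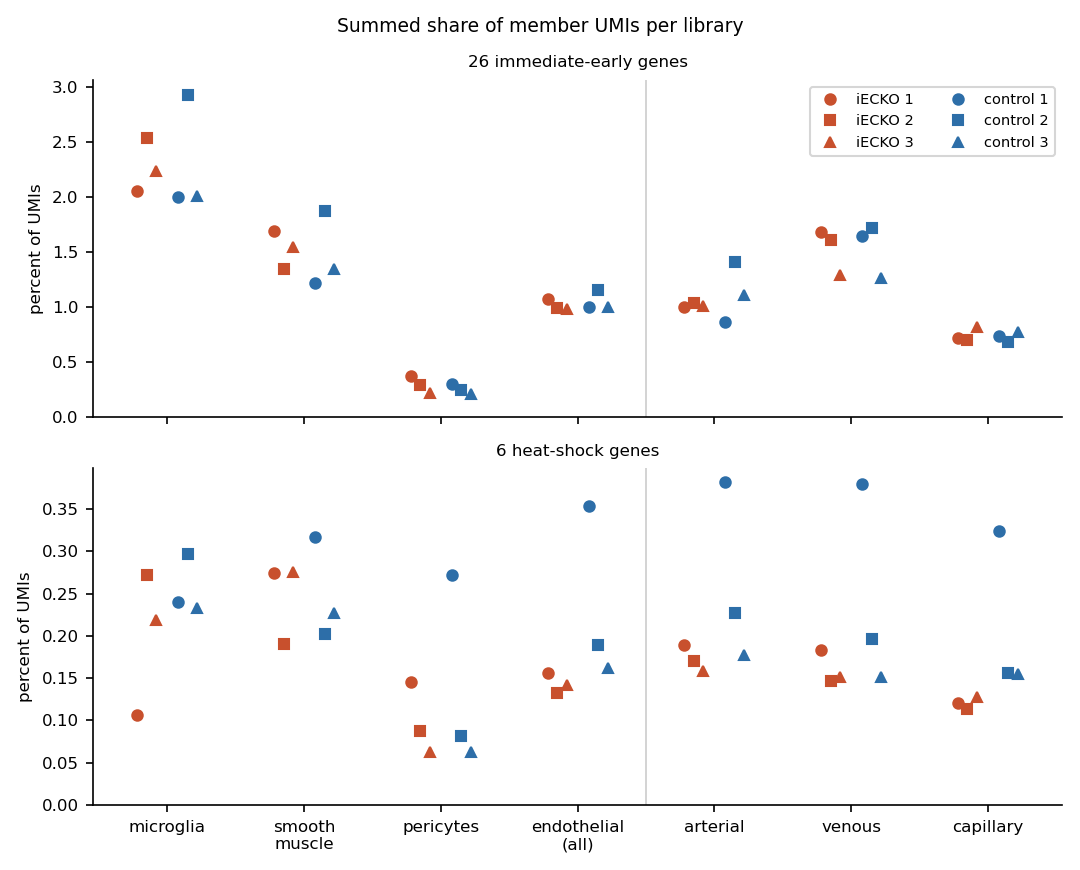
Percent of a library's UMIs that fell on the 26 immediate-early genes and on the 6 heat-shock genes, for each cell class and endothelial zone, one point per library, with iECKO libraries left of control libraries. The immediate-early share was 1.99% to 2.92% in microglia and 0.204% to 0.372% in pericytes, and control library 1 had the highest heat-shock share in every class and zone but microglia.

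Microglia, the resident macrophages of the brain, differed from endothelial cells in most members. Of the 31 members that passed the filter on low counts (Nr4a3 did not), 19 were higher and 6 lower in microglia at an adjusted p under 0.05 by edgeR's quasi-likelihood test with the library as a block, against 30.4% of all 8581 tested genes higher and 35.6% lower. The median log2 difference was 0.95 over these members and −0.09 over all genes. Higher members included 6 of 7 AP-1 genes, 5 of 7 feedback genes and 4 of 6 heat-shock genes. Egr2, a zinc finger factor known from Schwann cell myelination, had a lowest, median and highest value of 56.1, 89.6 and 194 CPM in microglia, against 1.56, 2.45 and 5.31 CPM in endothelial cells (log2 difference 5.15 ± 0.24, adjusted p = 1.2e-21). Ier5, whose product acts on heat shock factor, had 847, 1028 and 1297 CPM in microglia, against 153, 166 and 250.4 CPM in endothelial cells (log2 difference 2.45 ± 0.13, adjusted p = 9.7e-19). Atf3, a stress-induced factor of the ATF/CREB family, had 184, 345 and 1231 CPM in microglia, against 44.4, 89.1 and 112 CPM in endothelial cells (log2 difference 2.18 ± 0.25, adjusted p = 5.7e-07). For all 3 genes the lowest microglial library lay above the highest endothelial library. Zfp36, which encodes the mRNA-destabilising protein tristetraprolin, had 1035, 1346 and 1929 CPM in microglia, against 328, 392 and 559.7 CPM in endothelial cells (log2 difference 1.81 ± 0.14, adjusted p = 1.2e-13). Btg2 had 1546, 2357 and 2886 CPM in microglia, against 452, 646 and 991 CPM in endothelial cells (log2 difference 1.74 ± 0.13, adjusted p = 7.5e-17). Both again showed no overlap between the classes. Overlap was not counted over all genes in the class and zone comparisons here and below. The genes named were picked for large differences, so it only describes them.

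The 6 members lower in microglia were Nr4a2, Hspb1, Maff, Klf10, Nr4a1 and Gadd45g. Nr4a2, an orphan nuclear receptor, was all but absent there, with 0, 0 and 5.96 CPM (0 to 2 UMIs) in microglia, against 27.9, 54.4 and 66.7 CPM (663 to 1558 UMIs) in endothelial cells. Its fitted log2 difference of -5.40 ± 0.54 rests on these few UMIs and depends on how zeros are treated (adjusted p = 2.7e-10). Hspb1, the small heat-shock protein that binds actin, had 14.5, 45.5 and 176 CPM in microglia, against 622, 770.3 and 1944 CPM in endothelial cells (log2 difference -4.09 ± 0.44, adjusted p = 3.3e-07). Among the heat-shock genes it ran against the rest, since Hspa1a, Hspa1b, Dnajb1 and Hsp90aa1 were higher in microglia by 1.02, 1.48, 1.67 and 1.26 on the log2 scale. Maff, a small Maf protein without an activation domain, had 0, 2.01 and 23.9 CPM (0 to 8 UMIs) in microglia, against 18.0, 27.1 and 116 CPM in endothelial cells. Klf10, a TGF-beta-induced Krüppel-like repressor, had 29.0, 32.3 and 45.4 CPM in microglia, against 50.5, 63.0 and 142 CPM in endothelial cells (log2 difference -1.14 ± 0.23, adjusted p = 6.3e-05). Nr4a1, the best known of the NR4A receptors, had 30.3, 62.5 and 161 CPM in microglia, against 76.0, 162 and 199.96 CPM in endothelial cells (log2 difference -1.13 ± 0.23, adjusted p = 0.00016). The microglial highest value of Nr4a1 lay within the endothelial range, whereas that of Klf10 did not. Gadd45g, which activates stress kinases, had 54.3, 68.3 and 80.5 CPM in microglia, against 91.5, 138 and 190.1 CPM in endothelial cells (log2 difference -1.13 ± 0.37, adjusted p = 0.013), again with no overlap.

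Smooth muscle cells, the contractile cells of arterioles, had 16 members higher and 7 lower than endothelial cells, beside 31.3% of all genes higher and 33% lower. The median log2 difference was 0.58 over the 31 members tested and −0.05 over all genes. Fos had 3436, 4164 and 5848 CPM in smooth muscle cells, against 672, 837 and 1389 CPM in endothelial cells (log2 difference 2.31 ± 0.23, adjusted p = 4.7e-08). Socs3, the inhibitor of JAK-STAT signalling, had 157, 222 and 423 CPM in smooth muscle cells, against 41.3, 75.0 and 82.2 CPM in endothelial cells (log2 difference 1.89 ± 0.15, adjusted p = 2.4e-13). Ppp1r15a, which lets translation resume after stress, had 306, 437 and 593 CPM in smooth muscle cells, against 100.2, 117 and 177 CPM in endothelial cells (log2 difference 1.81 ± 0.12, adjusted p = 3.4e-18). None of these 3 genes overlapped between the classes. Nr4a1 had 275, 338 and 630.2 CPM in smooth muscle cells, against 76.0, 162 and 199.96 CPM in endothelial cells (log2 difference 1.35 ± 0.18, adjusted p = 5.5e-07), and Egr2 had 0, 9.70 and 14.5 CPM (0 to 17 UMIs) in smooth muscle cells, against 1.56, 2.45 and 5.31 CPM in endothelial cells (log2 difference 1.77 ± 0.38, adjusted p = 0.0001). The Nr4a1 ranges did not overlap, while Egr2 had a smooth muscle library at 0.

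The largest decreases in smooth muscle cells were in zinc finger factors and Maff. Klf10 had 0, 2.14 and 6.41 CPM in smooth muscle cells, against 50.5, 63.0 and 142 CPM in endothelial cells (log2 difference -4.30 ± 0.34, adjusted p = 4.9e-13). Egr3 had 3.34, 5.69 and 6.36 CPM (1 to 6 UMIs) in smooth muscle cells, against 15.8, 56.4 and 88.5 CPM in endothelial cells (log2 difference -3.27 ± 0.49, adjusted p = 9.8e-06). Maff had 0, 8.79 and 11.2 CPM (0 to 14 UMIs) in smooth muscle cells, with a log2 difference of -2.22 ± 0.43 (adjusted p = 0.00015). Klf10, Egr3 and Maff did not overlap between the classes. Klf6, a Krüppel-like factor known from vascular injury, had 155, 245 and 301 CPM in smooth muscle cells, against 437, 481 and 510.3 CPM in endothelial cells (log2 difference -1.04 ± 0.13, adjusted p = 6.5e-10). Ier3, linked to cell survival, had 101, 215 and 395 CPM in smooth muscle cells, against 252, 437 and 638 CPM in endothelial cells (log2 difference -0.98 ± 0.25, adjusted p = 0.0024). Klf6 showed no overlap, and Ier3 did. Ier2 and Ier5 were lower too, at -0.58 and -0.78, so 3 of the 4 other induced regulators were lower here. Microglia and smooth muscle cells shared 12 members called higher than in endothelial cells, each comparison having the same endothelial cells on its other side. Genes shared in this way were not counted over all genes, so the number only describes the members.

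Pericytes, the mural cells of capillaries, had 24 members lower than endothelial cells and 0 higher, beside 25.8% of all genes lower and 21.3% higher. The count of 0 came from edgeR's test, in which no member was higher at an unadjusted p under 0.05 either. The median log2 difference was −2.00 over the 31 members tested and −0.08 over all genes, and with DESeq2's size factors the median over all genes was 0.03. All 7 AP-1 genes, all 4 other induced regulators and 6 of 7 feedback genes were lower. Jun had 37.9, 257 and 319 CPM (7 to 55 UMIs) in pericytes, against 1295, 1579 and 2069 CPM in endothelial cells (log2 difference -3.04 ± 0.28, adjusted p = 3.4e-08). Ier3 had 26.4, 46.0 and 77.5 CPM (5 to 11 UMIs) in pericytes, against 252, 437 and 638 CPM in endothelial cells (log2 difference -3.23 ± 0.40, adjusted p = 2.2e-06). Every pericyte library lay below the endothelial range in both genes. Klf10, Egr3 and Maff rested on so few pericyte UMIs that their fitted differences depend on how zeros are treated: Klf10 had 0 to 5 UMIs per library (log2 difference -3.24 ± 0.46, adjusted p = 3.2e-07), Egr3 had 0 to 2 UMIs (-3.47 ± 0.80, adjusted p = 0.0014) and Maff had 0 to 2 UMIs (-3.92 ± 0.90, adjusted p = 0.0012). Of the heat-shock genes, Hspa1a and Hspb1 were lower, at -1.54 ± 0.42 and -1.13 ± 0.36, and Hsp90aa1, the inducible cytosolic HSP90, had 211, 402 and 576 CPM (39 to 125 UMIs) in pericytes, against 249, 368 and 620.5 CPM in endothelial cells (0.08 ± 0.23, adjusted p = 0.8). The Hspb1 call was lost without iECKO library 3 (adjusted p = 0.072) and without control library 3 (adjusted p = 0.075), at a log2 difference of −1.01 in both.

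Transcripts of other cell types were present in each class at low levels. The 11 endothelial markers summed to 725 to 1355 CPM in pericytes, 229 to 313 CPM in smooth muscle cells and 188 to 379 CPM in microglia, against 13880 to 18208 CPM in endothelial cells. The 10 microglial markers summed to 33.6 to 60.7 CPM in endothelial cells. In pericytes 2 of these (P2ry12 and Siglech) were at 0, and the 10 smooth muscle markers summed to 3940 to 11674 CPM there, against 40091 to 61885 CPM in smooth muscle cells. The part of such foreign transcripts in the class differences was not tested. Median UMIs per cell were 2063 to 3078 in pericytes, 2660 to 5482 in microglia, 5367 to 8764 in smooth muscle cells and 3657 to 5773 in endothelial cells. The median mitochondrial share was 7.79% to 9.50% in smooth muscle cells, against 3.26% to 4.51% in endothelial cells. With stricter cells no library had a smooth muscle sum, so the part of this in the smooth muscle differences was not tested. Of the 786 cells of the pericyte cluster 365 were used, against 652 of 679 for smooth muscle. The pericyte-like cells left out held at least 50% of the markers of an unrelated class. The 786 had a median depth 1.22 times their library's median, whereas the 365 lay below the library medians of 3758 to 5963 UMIs. The pericytes kept were thus the shallower ones, and the part of this in their values was not tested.

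**Figure D3:**
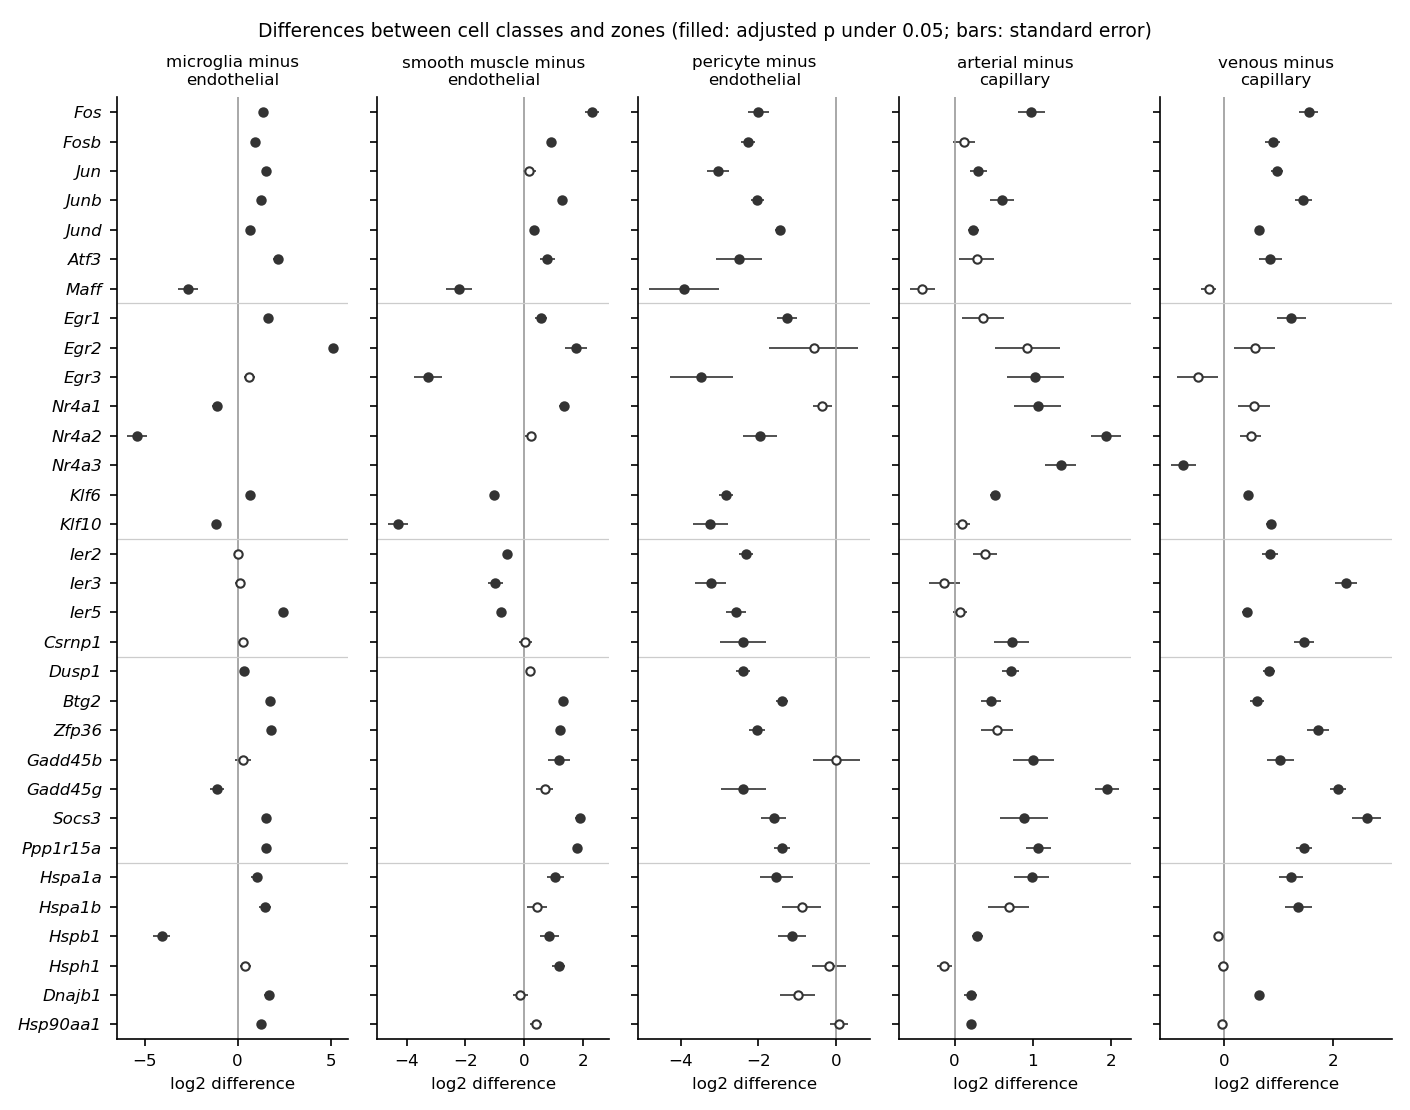
Fitted log2 difference of each member, with its standard error, for microglia, smooth muscle cells and pericytes against endothelial cells and for arterial and venous against capillary endothelial cells. Pericyte values lie below 0 for almost all members, arterial and venous values mostly above 0, and microglial values lie mostly above 0, with 6 exceptions called lower, among them Hspb1, Nr4a2 and Klf10.

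Along the vessel tree, members were higher in arterial and in venous cells than in capillary cells, each zone taken as a whole. Of the UMIs of arterial cells, immediate-early genes took 1.00, 1.03 and 1.01% in iECKO libraries, against 0.861, 1.40 and 1.11% in control libraries. The venous share was 1.68, 1.60 and 1.28% in iECKO libraries, against 1.64, 1.72 and 1.26% in control libraries, and the capillary share was 0.718, 0.699 and 0.816% in iECKO libraries, against 0.731, 0.678 and 0.767% in control libraries. Every arterial and every venous library lay above the highest capillary library. At a fixed 2000 UMIs per cell the median sum was 13, 14.5 and 15 in iECKO libraries and 11, 24 and 14 in control libraries in arterial cells, 26, 21 and 20.5 in iECKO libraries and 26, 28 and 19 in control libraries in venous cells and 10, 9 and 9 in iECKO libraries and 7, 6 and 8 in control libraries in capillary cells. Zones also differed in depth and in Gm42418: median UMIs per cell were 4824 to 6908 in arterial, 5696 to 12612 in venous and 3313 to 5214 in capillary cells, and in each library the Gm42418 share was lower in arterial and in venous than in capillary cells (in iECKO library 2, 14.2% and 12.6%, against 17.7%). The part of either in the zone differences was not tested. Between finer subclusters, named by a leading gene, the order did not hold throughout. The immediate-early share averaged 1.69% in the Fbln5-led and 0.860% in the Gkn3-led subcluster, both with arterial markers. It averaged 1.65% in the Lrg1-led subcluster with venous markers. With capillary markers it averaged 0.965% (Olfm5-led), 0.819% (Ttr-led), 0.782% (Apln-led) and 0.315% (Gm26917-led).

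Arterial cells had 20 of the 32 members higher than capillary cells and 0 lower, beside 21.4% of all 11521 genes higher and 21% lower. At an unadjusted p under 0.05 Maff was lower as well (-0.41 ± 0.16, adjusted p = 0.056). DESeq2 called 22 higher and Maff lower (-0.39 ± 0.15, adjusted p = 0.034), beside 17.3% of all genes lower, and edgeR also called Maff lower without control library 1 and without control library 2. The median log2 difference was 0.53 over the members and −0.01 over all genes. All 3 NR4A receptors, nuclear receptors without a known ligand, were called higher. Nr4a2 had 58.7, 152 and 182 CPM in arterial cells, against 17.8, 35.1 and 41.2 CPM in capillary cells (log2 difference 1.94 ± 0.19, adjusted p = 7.4e-06). Nr4a3 had 4.16, 13.3 and 32.7 CPM (14 to 135 UMIs) in arterial cells, against 1.75, 4.42 and 17.2 CPM in capillary cells (log2 difference 1.36 ± 0.20, adjusted p = 1.2e-05). Nr4a1 had 97.2, 258 and 386 CPM in arterial cells, against 48.4, 114 and 195 CPM in capillary cells (log2 difference 1.06 ± 0.30, adjusted p = 0.015). Of these 3, only Nr4a2 had ranges that did not overlap. The Nr4a1 call was lost without iECKO library 3 (log2 difference 1.04, adjusted p = 0.058), without control library 2 (0.85, adjusted p = 0.068) and without control library 3 (0.99, adjusted p = 0.065). Gadd45g had 131, 259 and 321 CPM in arterial cells, against 34.1, 55.8 and 109.8 CPM in capillary cells (log2 difference 1.95 ± 0.15, adjusted p = 6.5e-07). Ppp1r15a had 97.6, 142 and 289.9 CPM in arterial cells, against 68.0, 71.3 and 78.5 CPM in capillary cells (log2 difference 1.07 ± 0.16, adjusted p = 0.0002). For both, the lowest arterial library lay above the highest capillary library.

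Venous cells had 23 members higher and 1 lower than capillary cells, beside 25.6% of all genes higher and 25% lower. The median log2 difference was 0.84 over the 32 members and 0.00 over all genes. All 7 feedback genes and all 4 other induced regulators were higher. Socs3 had 79.3, 192 and 236 CPM in venous cells, against 17.0, 27.1 and 30.2 CPM in capillary cells (log2 difference 2.61 ± 0.27, adjusted p = 1.1e-05). Ier3 had 514, 1004 and 1735 CPM in venous cells, against 159, 225 and 283 CPM in capillary cells (log2 difference 2.23 ± 0.19, adjusted p = 2.8e-06). Gadd45g had 158, 231 and 405 CPM in venous cells, against 34.1, 55.8 and 109.8 CPM in capillary cells (log2 difference 2.09 ± 0.15, adjusted p = 2.5e-07). Zfp36 had 563, 805 and 1024 CPM in venous cells, against 211, 236 and 248 CPM in capillary cells (log2 difference 1.73 ± 0.20, adjusted p = 3e-05), and Fos had 1079, 1616 and 1944 CPM in venous cells, against 419, 492 and 694 CPM in capillary cells (log2 difference 1.55 ± 0.17, adjusted p = 2e-05). In all 5 genes, picked as the largest called differences, the lowest venous library lay above the highest capillary library. The share of all genes without overlap was not counted here. Nr4a3 was the member lower in venous cells, with 1.88, 3.28 and 4.89 CPM in venous cells, against 1.75, 4.42 and 17.2 CPM in capillary cells (-0.74 ± 0.23, adjusted p = 0.012), and its call was lost without iECKO library 1 (−0.25, adjusted p = 0.37). Arterial and venous cells shared 14 members called higher, with the same capillary cells on the other side of both comparisons. A further 6 were called higher only in arterial and 9 only in venous cells, without a test of the arterial against the venous value. Genes called in both or in only 1 of these comparisons were not counted over all genes, so the numbers only describe the members. Side by side, Nr4a2 was higher by 1.94 in arterial and 0.49 in venous cells, and Ier3 differed by -0.13 in arterial and 2.23 in venous cells. Leaving out 1 library at a time left 16 to 21 members called in arterial and 24 to 26 in venous cells, and Jun and Dnajb1 lost their arterial calls in several of these fits (Jun 0.30 ± 0.11 and Dnajb1 0.21 ± 0.08 with all libraries; Jun 0.24 and Dnajb1 0.12 without control library 2).

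The promoters of the NR4A genes are shown because these 3 genes were called higher in arterial cells and each holds several copies of the core letters to which CREB-family factors bind. The letters TGACG were sought on both strands (CGTCA on the printed strand for the reverse), counting each place where they occur, in RefSeq promoter windows of build GRCm38.p6. The windows reach 250 bases before to 50 after a transcript start, but only the 250 before it were searched, and shares of windows refer to these. Of 32851 windows, 17.8% held TGACG, and 0.137% held 4 or more. Of the 38 windows of the 27 members with an entry, 55.3% held it, in 15 members, and each NR4A window held 4. The longer palindrome TGACGTCA, which counts as 2 overlapping matches of TGACG, stood in 1.55% of all windows and in those of Btg2, Dusp1, Maff and Ppp1r15a. A match is a run of letters and not evidence that a factor binds there. The 250 bases before each start follow, 5′ to 3′ on the gene's strand, with TGACG or CGTCA in capitals: Nr4a1 at chr15:101266596-101266845 (plus strand), Nr4a2 at chr2:57124004-57124253 (minus strand) and Nr4a3 at chr4:48045055-48045304 (plus strand).
Nr4a1: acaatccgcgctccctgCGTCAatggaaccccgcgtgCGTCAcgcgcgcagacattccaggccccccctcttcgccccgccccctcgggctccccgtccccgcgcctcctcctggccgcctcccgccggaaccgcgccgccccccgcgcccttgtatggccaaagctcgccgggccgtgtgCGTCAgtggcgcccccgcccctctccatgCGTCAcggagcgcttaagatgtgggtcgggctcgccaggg
Nr4a2: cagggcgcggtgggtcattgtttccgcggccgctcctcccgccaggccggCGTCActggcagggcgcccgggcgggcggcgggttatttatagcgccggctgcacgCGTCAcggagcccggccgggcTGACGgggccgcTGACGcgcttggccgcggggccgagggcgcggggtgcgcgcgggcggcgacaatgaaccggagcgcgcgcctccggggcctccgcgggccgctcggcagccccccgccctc
Nr4a3: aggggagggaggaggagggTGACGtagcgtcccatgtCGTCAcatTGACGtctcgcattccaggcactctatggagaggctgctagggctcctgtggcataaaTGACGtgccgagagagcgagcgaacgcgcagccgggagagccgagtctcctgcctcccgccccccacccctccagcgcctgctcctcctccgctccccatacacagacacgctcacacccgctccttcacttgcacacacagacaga

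Several members differed by replicate number. In endothelial cells, edgeR's test over the 3 replicate numbers, with genotype in the fit, called 7 of the 32 members at an adjusted p under 0.05, beside 13.6% of all 13253 genes tested, and DESeq2 called 16, beside 12.6%. The 7 were Fosb, Ier5, Atf3, Dnajb1, Btg2, Jund and Ier2. Fosb, an AP-1 gene, had 302, 567 and 259 CPM in iECKO libraries 1, 2 and 3, against 255, 644 and 179 CPM in control libraries 1, 2 and 3 (adjusted p = 0.0089), highest in number 2 of both groups. Ier5 had 265, 173 and 157 CPM in iECKO libraries 1, 2 and 3, against 260.1, 152 and 155 CPM in control libraries 1, 2 and 3, highest in number 1 of both groups. Btg2 had 589.6, 810.2 and 723 CPM in iECKO libraries 1, 2 and 3, against 475, 958 and 591 CPM in control libraries 1, 2 and 3, highest in number 2. The order over the numbers was the same in both groups for 14 of 32 members, and the highest mean fell on number 1 for 18, on number 2 for 13 and on number 3 for 1. Neither was counted over all genes, so these counts only describe the members. Libraries with the same number also deviated from their group means together over all genes (r of 0.43 to 0.53), so the numbers were taken to pair the libraries. Different numbers gave at most −0.10, but deviations within a group sum to 0, so those values are not separate evidence. Leaving out a library gave 5 to 18 called members, the most without control library 1 (18, beside 25.9% of all genes) and without iECKO library 1 (17, beside 17.5%).

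Genotype was compared next: whether the endothelial cells of mice with mosaic Cldn5 loss carried more or less of these transcripts than those of control mice. No member passed the threshold in endothelial cells by edgeR, beside 0.0151% of 13253 genes called (2 genes), while 4 members had an unadjusted p under 0.05, beside 987 genes. This fit, and those by genotype within a class or zone below, left the replicate number out unless the block is named. The summed immediate-early share averaged 1.01 ± 0.0543% in iECKO libraries and 1.05 ± 0.0885% in control libraries (SD, n = 3 each), a difference within the spread. The median log2 fold change over the members was −0.10, against 0.00 over all genes, with 10 of 32 members above 0. All 6 heat-shock genes had values below 0, with a median of −0.84, and their summed share averaged 0.144 ± 0.012% in iECKO libraries and 0.235 ± 0.103% in control libraries, where control library 1 alone reached 0.353%. With the replicate number as a block edgeR called Gadd45g, beside 1.49% of all genes, and DESeq2 without the block called Hspa1a and Hspa1b, beside 1.18%.

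Hspa1a and Hspa1b encode the stress-inducible HSP70 chaperone and lie next to each other on chromosome 17. Hspa1a had 215, 200.3 and 211 CPM in iECKO libraries, against 531, 402 and 267 CPM in control libraries (log2 fold change -0.94 ± 0.23, adjusted p = 0.28). All 3 iECKO libraries lay below all 3 control libraries, and DESeq2 gave an adjusted p of 0.011. Hspa1b had 100.03, 127 and 93.8 CPM in iECKO libraries, against 269.6, 318 and 123 CPM in control libraries (log2 fold change -1.15 ± 0.32, adjusted p = 0.34). Here iECKO library 2 lay above control library 3, so the groups overlapped, with a DESeq2 adjusted p of 0.016. With the replicate block the adjusted p was 0.12 for Hspa1a and 0.13 for Hspa1b. The copies are close in sequence: 64.1% of the 30-base words of the Hspa1a transcript (2967 bases) and 67.8% of those of Hspa1b (2803 bases) occur in the other, so reads could be split or dropped between them, but 0% of the words in their last 400 bases do, the part nearest to where 3′ counting reads. Their promoters are shown because these too are nearly the same. The 250 bases before the start were 98.8% identical, and each held GAANNTTC, a pair of the units heat shock factor binds, once (12.8% of all windows held GAANNTTC or TTCNNGAA, which are the 2 spacings sought, as did those of Hspb1 and Hsph1 and, outside the heat-shock genes, Egr2 and Jun, but not that of Dnajb1). Both are on the minus strand, at chr17:34972157-34972406 for Hspa1a and chr17:34959239-34959488 for Hspa1b, with the match in capitals.
Hspa1a: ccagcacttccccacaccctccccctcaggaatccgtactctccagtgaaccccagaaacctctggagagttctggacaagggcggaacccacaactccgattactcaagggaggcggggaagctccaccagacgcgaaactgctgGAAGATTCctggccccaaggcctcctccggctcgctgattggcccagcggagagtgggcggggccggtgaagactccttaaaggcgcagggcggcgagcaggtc
Hspa1b: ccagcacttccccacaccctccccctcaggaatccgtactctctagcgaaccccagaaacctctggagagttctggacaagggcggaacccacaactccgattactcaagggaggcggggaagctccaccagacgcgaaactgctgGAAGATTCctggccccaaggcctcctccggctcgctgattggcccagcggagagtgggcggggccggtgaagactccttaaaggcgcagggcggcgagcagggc

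The other heat-shock genes overlapped between the groups. Hspb1 had 862, 617 and 658 CPM in iECKO libraries, against 2041, 798 and 735 CPM in control libraries (log2 fold change -0.74 ± 0.38, adjusted p = 0.77). Control library 1 stood far above the other 5 libraries. Hsp90aa1 had 374, 379 and 254 CPM in iECKO libraries, against 652, 409.9 and 255 CPM in control libraries (log2 fold change -0.39 ± 0.32, adjusted p = 0.92). Dnajb1, the J-domain partner of HSP70, had 73.4, 51.4 and 52.4 CPM in iECKO libraries, against 106, 78.1 and 59.6 CPM in control libraries (log2 fold change -0.46 ± 0.22, adjusted p = 0.73). In both, iECKO library 1 lay above control library 3. Hsph1, the nucleotide exchange factor of HSP70, had 27.4, 21.0 and 14.1 CPM in iECKO libraries, against 85.7, 23.9 and 14.7 CPM in control libraries. Without control library 1 the fitted log2 fold change of Hsp90aa1 was 0.01 and that of Hsph1 was 0.11, so their values below 0 rested on that library.

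Of the feedback genes, Gadd45g was the clearest. Gadd45g had 137, 91.9 and 93.4 CPM in iECKO libraries, against 199.6, 183 and 149 CPM in control libraries (log2 fold change -0.72 ± 0.19, adjusted p = 0.33). The groups did not overlap, and with the replicate block the log2 fold change was -0.73 ± 0.10 (edgeR adjusted p = 0.019). Ranges that did not overlap occurred in 3 of the 32 members, beside 11.7% of all 13253 genes tested, a share near that of the members. The others were Hspa1a and Csrnp1, a nuclear protein induced by axin signalling, which had 23.2, 21.6 and 20.1 CPM in iECKO libraries, against 17.1, 19.8 and 18.5 CPM in control libraries. Dusp1 had 701, 687 and 628 CPM in iECKO libraries, against 605, 826 and 596 CPM in control libraries, with a log2 fold change of -0.01 ± 0.18. Zfp36 had 437, 394 and 335 CPM in iECKO libraries, against 406, 541 and 339 CPM in control libraries (-0.14 ± 0.20). The groups overlapped in both genes, as they did in Socs3, with 86.9, 79.5 and 42.1 CPM in iECKO libraries, against 73.3, 79.3 and 61.6 CPM in control libraries (-0.04 ± 0.25).

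AP-1 and EGR genes did not move in a shared direction. Fos had 909, 807 and 686 CPM in iECKO libraries, against 965, 1343 and 763 CPM in control libraries (-0.35 ± 0.23). Jun had 1369, 1766 and 1550.4 CPM in iECKO libraries, against 1561, 2000.2 and 1659.5 CPM in control libraries (-0.16 ± 0.19). Junb had 1381, 983 and 828 CPM in iECKO libraries, against 1126, 1257 and 875 CPM in control libraries (-0.03 ± 0.24). Control library 2 was highest for Fos and Jun, and iECKO library 1 for Junb. Atf3 had 108, 75.0 and 45.4 CPM in iECKO libraries, against 118, 102 and 68.5 CPM in control libraries (-0.33 ± 0.32). Maff had 123, 51.9 and 27.6 CPM in iECKO libraries, against 28.6, 20.7 and 18.2 CPM in control libraries (log2 fold change 1.59 ± 0.55, adjusted p = 0.56), with iECKO library 1 far above the rest and iECKO library 3 within the control range. Egr1 had 849.7, 817 and 505 CPM in iECKO libraries, against 370.03, 673 and 443 CPM in control libraries (log2 fold change 0.55 ± 0.27, adjusted p = 0.75), where control library 2 lay above iECKO library 3. Nr4a1 had 163, 169.6 and 145 CPM in iECKO libraries, against 79.9, 172 and 202 CPM in control libraries (0.07 ± 0.29), low in control library 1 alone. Klf6 had 511, 482 and 446 CPM in iECKO libraries, against 499, 493 and 484 CPM in control libraries (-0.04 ± 0.15), the narrowest spread of these genes.

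Within zones edgeR again called 0 members in arterial (beside 0.048% of all genes), capillary (0.218%) or venous cells (0%), while 7, 7 and 2 members had an unadjusted p under 0.05. The last 3 counts have no share over all genes beside them, so they only describe the members. The direction differed by zone in the 8 EGR, NR4A and KLF factors. In capillary cells 7 had a log2 fold change above 0 (median 0.61), in arterial cells 1 (median -0.17) and in venous cells 3 (median -0.10). These counts too only describe the members. DESeq2 called 0 in arterial cells and 0 in venous cells. In capillary cells Hspa1a had 72.8, 101 and 139.9 CPM in iECKO libraries, against 410.4, 289.5 and 203 CPM in control libraries (log2 fold change -1.53 ± 0.30, adjusted p = 0.092), and Hspa1b had 33.3, 62.0 and 58.9 CPM in iECKO libraries, against 215, 232 and 86.9 CPM in control libraries (log2 fold change -1.79 ± 0.41, adjusted p = 0.18). Egr1 had 772, 612 and 383 CPM in iECKO libraries, against 188, 329 and 295 CPM in control libraries (log2 fold change 1.12 ± 0.28, adjusted p = 0.17). Gadd45b, a stress-kinase activator like Gadd45g, had 24.3, 21.6 and 22.6 CPM in iECKO libraries, against 67.0, 41.5 and 25.9 CPM in control libraries (log2 fold change -0.97 ± 0.30, adjusted p = 0.26). In each of the 4 genes the groups did not overlap, and DESeq2 called all 4 (adjusted p of 1.5e-05, 1.3e-05, 0.0037 and 0.043), beside 2.48% of all genes. The share of all genes without overlap was not counted in capillary cells, and in all endothelial cells it was 11.7%. With the replicate block edgeR called 0 members there, beside 3.61%. Without iECKO library 3 edgeR called 3, beside 3.55% of all genes: Maff, Hspa1a (-1.81) and Egr1 (1.35). Capillary cells of iECKO library 1 fell mostly in a subcluster led by Apln, which held 2600, 394 and 185 endothelial cells of the iECKO libraries and 46, 32 and 22 of the control libraries, and the part of that make-up in these values was not tested.

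The replicate block changed more in arterial and venous cells. In arterial cells it called 5 members, beside 2.12% of all genes. Gadd45g had 265, 162 and 132 CPM in iECKO libraries, against 324, 301 and 259 CPM in control libraries (-0.71 ± 0.13 with the block, adjusted p = 0.0027). Gadd45b had 64.1, 43.7 and 43.8 CPM in iECKO libraries, against 107, 105 and 55.5 CPM in control libraries (-0.75 ± 0.15, adjusted p = 0.0057). In both, each iECKO library lay below the control library of its number. This also held for Hspb1, with 1043, 720.2 and 761 CPM in iECKO libraries, against 2207, 1081 and 885 CPM in control libraries (-0.63 ± 0.14, adjusted p = 0.024), and for Dnajb1, with 65.1, 55.7 and 46.8 CPM in iECKO libraries, against 91.6, 89.9 and 56.8 CPM in control libraries (-0.48 ± 0.13, adjusted p = 0.048). Maff was higher within each number, with 101, 36.2 and 21.3 CPM in iECKO libraries, against 32.7, 15.5 and 17.1 CPM in control libraries (1.14 ± 0.22, adjusted p = 0.017). In venous cells the block called Gadd45g and Atf3, beside 0.534% of all genes. Gadd45g had 209, 204 and 156 CPM in iECKO libraries, against 402, 348 and 248 CPM in control libraries (-0.79 ± 0.10, adjusted p = 0.0049). Atf3 had 123, 114 and 56.7 CPM in iECKO libraries, against 215, 153 and 93.9 CPM in control libraries (-0.66 ± 0.10, adjusted p = 0.016). Gadd45g was lower in every iECKO library than in its control partner in arterial, capillary and venous cells alike.

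**Figure D4:**
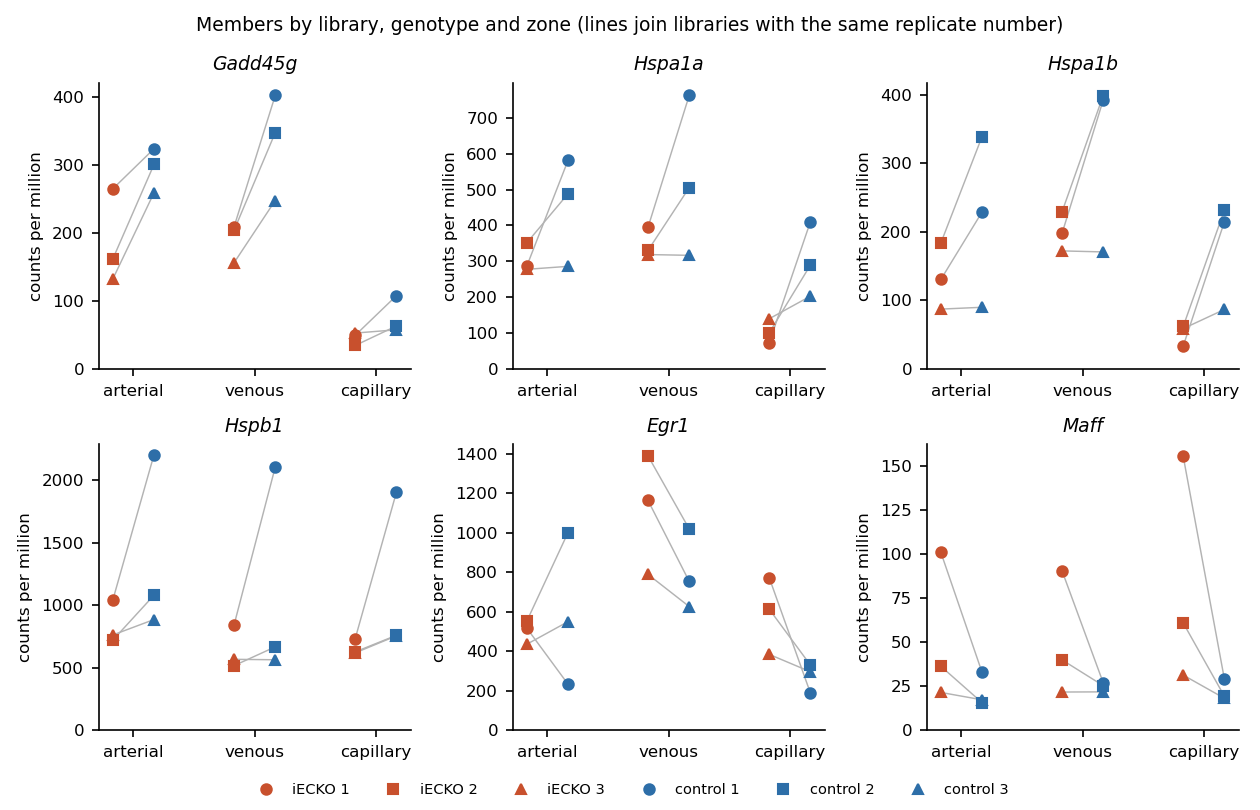
CPM of Gadd45g, Hspa1a, Hspa1b, Hspb1, Egr1 and Maff in arterial, venous and capillary endothelial cells, one panel per gene, one point per library with iECKO libraries left of control libraries, and lines joining libraries with the same replicate number. Every line of Gadd45g runs higher on the control side, Hspb1 is highest in control library 1 in each zone, and Maff is highest in iECKO library 1 in each zone.

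The difference of the genotype effect between zones was called for Egr2 (arterial against capillary, beside 0.382% of 12039 genes) and for Maff (venous against capillary, beside 0.914%). Egr2 had 1.47, 3.77 and 1.80 CPM in iECKO libraries, against 1.75, 11.99 and 7.29 CPM in control libraries in arterial cells (6, 5 and 6 UMIs and 4, 34 and 23 UMIs) and 4.19, 1.79 and 1.88 CPM in iECKO libraries, against 1.03, 2.15 and 2.02 CPM in control libraries in capillary cells. The difference of its log2 fold changes was -2.42 ± 0.55 (adjusted p = 0.039), and the call was lost without iECKO library 1 (−1.59) and without control library 1 (−2.61), 2 (−2.04) or 3 (−2.51). Maff had 90.3, 39.8 and 21.5 CPM in iECKO libraries, against 26.8, 25.2 and 21.6 CPM in control libraries in venous cells and 155, 60.7 and 31.1 CPM in iECKO libraries, against 28.9, 19.1 and 18.0 CPM in control libraries in capillary cells. Its difference was -0.85 ± 0.15 (adjusted p = 0.003) and stayed called without any 1 library, between −0.75 and −0.98. Capillary cells of iECKO libraries fell in the Apln-led subcluster more often than venous cells, and the part of that in the Maff difference was not tested. DESeq2 gave no adjusted p for Egr2 (-2.22 ± 0.71, unadjusted p = 0.0018), and Egr2 was not called with the members kept in clustering (-2.46, adjusted p = 0.064). DESeq2 kept Maff (-0.86 ± 0.20) and called Hspa1a in both zone differences (0.98 ± 0.23 in arterial and 0.98 ± 0.23 in venous against capillary cells), beside 0.482% and 0.64% of all genes. Without iECKO library 3 the number of called members was 4 in each, where the calls over all genes also increased, to 2.11% and 2.46%.

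Outside the endothelium edgeR called 0 members by genotype in pericytes (beside 0.0333% of 3000 genes), smooth muscle cells (0.0145% of 6899) and microglia (0.0313% of 6398), with 3, 1 and 2 members at an unadjusted p under 0.05, while DESeq2 called 0 in each. Only 17 members passed the filter in pericytes, 28 in smooth muscle cells and 29 in microglia. With the block 3 were called in pericytes, beside 0.7% of genes. Egr1 had 456, 652 and 213 CPM in iECKO libraries, against 191, 191 and 196 CPM in control libraries, from 80, 91 and 32 UMIs and 17, 24 and 28 UMIs (1.10 ± 0.24 with the block, adjusted p = 0.002). Junb had 513, 587 and 247 CPM in iECKO libraries, against 168, 279 and 209.8 CPM in control libraries (0.96 ± 0.23, adjusted p = 0.0081), and Hspb1 had 684, 337 and 233 CPM in iECKO libraries, against 1684, 318 and 322 CPM in control libraries (-0.70 ± 0.19, adjusted p = 0.039). Hspb1 was high in control library 1 alone, and without it the fit without the block gave 0.40. The difference of the genotype effect from that in endothelial cells was called for 0 members in pericytes (beside 0.0891% of 8976 genes) and 0 in microglia (0.134%) by edgeR, with 4 members in each at an unadjusted p under 0.05, and for 0 by DESeq2. Counts at an unadjusted p outside the endothelium have no share over all genes beside them and only describe the members. Without iECKO library 3 it was called for Gadd45g in pericytes (beside 0.215% of genes) and for Maff in microglia (0.48%), and in microglia for Maff without control library 1 (0.0987%) and for Ier3 without control library 2 (0.122%). In the genotype comparison itself 1 member was called in pericytes without iECKO library 3 (Egr1, 1.52, adjusted p = 0.047), beside 0.0846% of genes, and 1 in microglia without control library 2 (Ier3), beside 0.153%.

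Because the deletion is mosaic, cells without and with Cldn5 transcripts could be compared inside the same iECKO libraries. Endothelial cells of at least 2000 UMIs were split into those with 0 and those with at least 2 Cldn5 UMIs, summed per library and zone where at least 20 cells were on each side. The 14 sums form 7 pairs from only 3 libraries, so pairs of 1 library are not independent and the p-values may be too small. Members were lower in the cells without: 11 of the 30 that passed the filter were called lower and 0 higher, beside 1.55% of 8722 genes lower and 1.24% higher. The median log2 difference over these members was −0.31, against 0.00 over all genes. In capillary cells the immediate-early share was 0.576%, 0.571% and 0.664% in cells without Cldn5 UMIs of iECKO libraries 1, 2 and 3, against 0.758%, 0.715% and 0.849% in cells with them. Capillary Fosb had 98.6, 281 and 135 CPM in cells without Cldn5 UMIs of libraries 1, 2 and 3, against 205, 459 and 254 CPM in cells with them. Capillary Jun had 541, 870.4 and 988 CPM in cells without Cldn5 UMIs of libraries 1, 2 and 3, against 882, 1336 and 1482 CPM in cells with them. In each library both were lower in the cells without Cldn5. Fosb (-0.83 ± 0.08), Jun (-0.69 ± 0.06), Junb (-0.55 ± 0.07) and Jund (-0.43 ± 0.06) fell among the AP-1 genes, Egr1 (-0.58 ± 0.07) among the EGR factors, Ier2 (-0.33 ± 0.07) and Ier3 (-0.34 ± 0.09) among the other regulators, Zfp36 (-0.49 ± 0.08), Dusp1 (-0.41 ± 0.07) and Btg2 (-0.26 ± 0.07) among the feedback genes, and Hspa1b (-0.78 ± 0.13) among the heat-shock genes, all as log2 differences by edgeR. DESeq2 gave no adjusted p for Hspa1b. Fos, at -0.82 ± 0.18, did not pass (adjusted p = 0.089). Without iECKO library 1 Btg2, Ier2, Ier3 and Junb lost their calls (8 called, beside 0.475% of all genes lower), and Btg2 also without iECKO library 3. In capillary cells alone, with 1 pair of sums per library and an alternative chosen after seeing the data, 10 of 31 members were lower and 0 higher, beside 1.78% of 10500 genes lower, with a median of −0.16 over the members. There Fos passed (-0.56 ± 0.08, adjusted p = 2.7e-09), while Btg2 (-0.11 ± 0.07, adjusted p = 0.55), Ier2 (-0.19 ± 0.08, adjusted p = 0.17) and Ier3 (-0.14 ± 0.09, adjusted p = 0.5) did not.

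The cells without Cldn5 UMIs were also shallower and richer in rRNA-linked transcript. In capillary cells their median UMIs were 3233, 4139 and 4453, against 4246, 5489 and 5678 in cells with Cldn5, and Gm42418 took 13.1%, 21.5% and 4.34% of their UMIs, against 10.0%, 17.2% and 3.29%. Gm26917, another noncoding transcript, was higher in them by 0.44 (log2, edgeR adjusted p = 0.00012). In control libraries, where nothing deletes the gene, too few cells lacked Cldn5 for the same split, so cells with 0 or 1 were set against cells with at least 5 Cldn5 UMIs, a split chosen after seeing the data. Only capillary cells of control libraries 1 and 2 had 20 cells on each side, so that fit has 2 pairs of sums and 1 residual degree of freedom. There 18 of 31 members were lower and 0 higher in the 87 cells with 0 or 1 than in the 4486 with at least 5, beside 6.53% of 10636 genes lower, with a median of −1.81 over the members and −0.21 over all genes. In control library 1 the immediate-early share was 0.286% in these capillary cells, against 0.784%, and in control library 2 it was 0.201%, against 0.701%. Their Gm42418 shares were 22.6%, against 8.92%, and 42.5%, against 21.7%. The low cells held only 62 Jun UMIs and 4 Fosb UMIs. In capillary cells of the 3 iECKO libraries the same split called 12 of 31 members lower and 0 higher (1064 against 3600 cells), beside 4.05% of 10520 genes lower, with a median of −0.24, and Fosb was not among them (-0.82 ± 0.23, adjusted p = 0.21). Over all zones it called 13 of 31 lower (1406 against 5167 cells), beside 2.19% of 9513 genes, and Hspa1b was not among them (-0.39 ± 0.17, adjusted p = 0.32). The difference between iECKO and control libraries was not tested. With 0 set against at least 2 Cldn5 UMIs again, 8 members were lower in iECKO libraries among cells of at least 4000 UMIs, beside 0.278% of 9337 genes. Among cells thinned to 2000 UMIs before the split 4 were lower, beside 0.844% of 5453 genes, with a median of −0.15 over 28 members. In these thinned cells Fosb had -0.50 ± 0.09, adjusted p = 2.1e-05, Jun -0.44 ± 0.07, adjusted p = 6.7e-07, Jund -0.28 ± 0.07, adjusted p = 0.01 and Ier2 -0.40 ± 0.07, adjusted p = 0.00012, while Hspa1b had -0.03 ± 0.14, adjusted p = 0.96. Both alternatives were added after seeing the data. Depth, the rRNA-linked share and Cldn5 loss cannot be told apart in these cells.

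**Figure D5:**
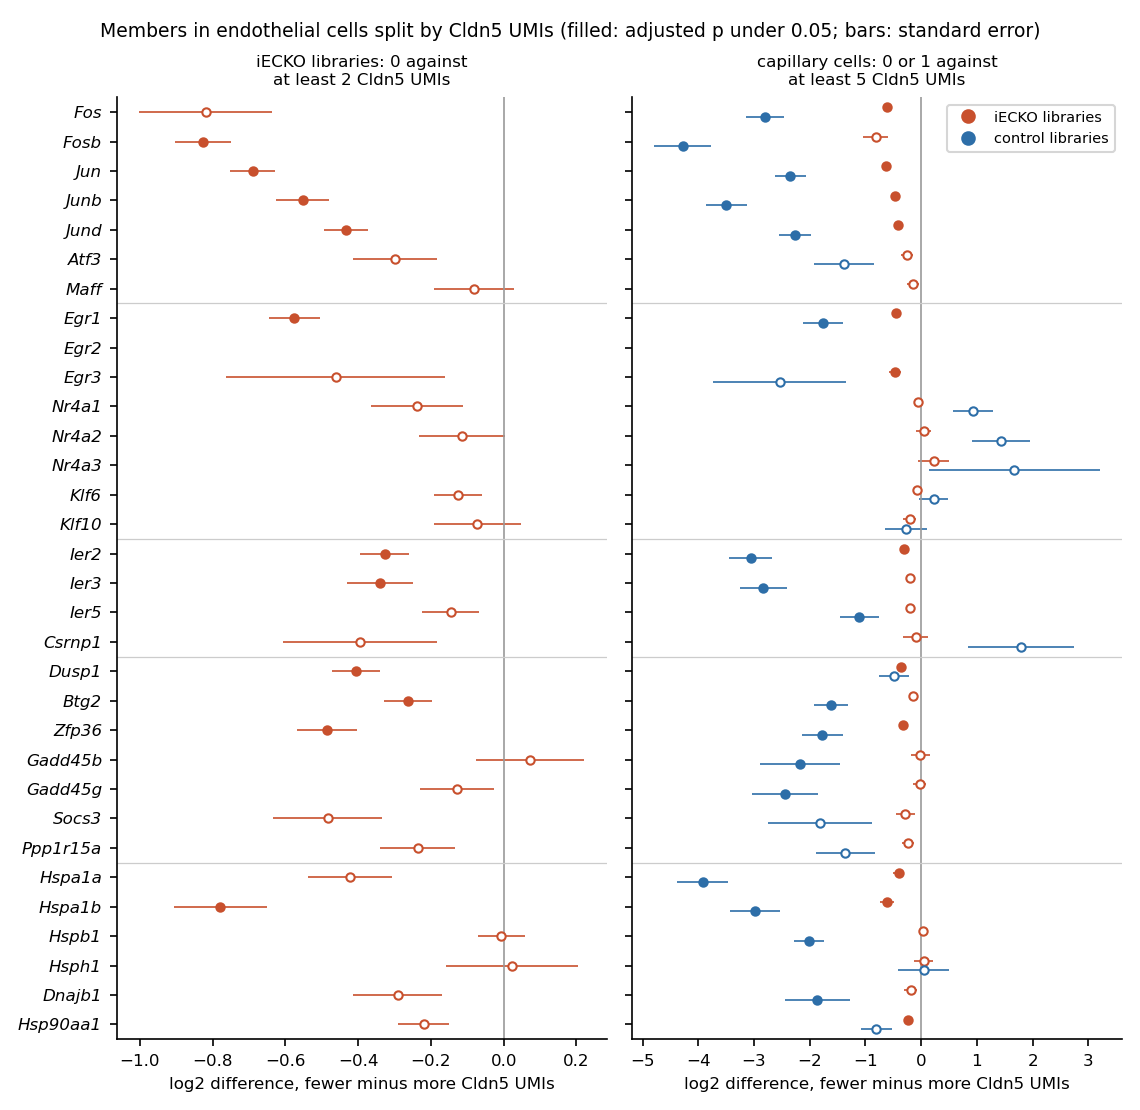
Log2 difference of each member, with its standard error and filled where the adjusted p was under 0.05: left, endothelial cells with 0 against at least 2 Cldn5 UMIs in iECKO libraries; right, on a wider axis, capillary cells with 0 or 1 against at least 5 Cldn5 UMIs in the 3 iECKO libraries and in control libraries 1 and 2 (Maff in control libraries is not drawn because its standard error exceeds 2). Most members lie below 0, and on the right most control values, from 87 cells with 0 or 1 Cldn5 UMI, lie further from 0 and have longer bars.

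Related genes outside the 32 were counted in 4 lists. By genotype in endothelial cells edgeR called 0 of 36 tested other immediate-early genes, 0 of 21 upstream kinases and factors, 0 of 29 other chaperones and 0 of 21 genes of endoplasmic reticulum stress, beside 0.0151% of all genes. With the replicate block 2 other immediate-early genes were called higher, Fosl1 (4.01 ± 0.37) and Arid5a (0.69 ± 0.11), beside 1.49%. In capillary cells 0 of each list was called, and with the block these 2 and Dusp2 were higher, as were the chaperone genes Dnajb5 and Cct2, beside 3.61%. In microglia, against endothelial cells, where 30.4% of all genes were higher and 35.6% lower, 10 of 28 other immediate-early genes were higher and 15 lower, the largest differences being those of Ccn2 (-6.91 ± 0.80), a matrix-associated growth factor gene, and Klf9 (-5.58 ± 0.31). Of 17 genes of endoplasmic reticulum stress, 13 were higher and 1 lower there, led by the chaperone cofactor Sdf2l1 (4.15 ± 0.16). Pericytes, where 21.3% of all genes were higher and 25.8% lower, had 2 of 28 other immediate-early genes higher and 15 lower, among them Klf2 (-4.58 ± 0.24) and Klf4 (-4.25 ± 0.32), and 6 of 28 other chaperones higher and 11 lower. Smooth muscle cells, with 31.3% of all genes higher and 33% lower, had 14 of 28 other chaperones higher and 5 lower, with the small heat-shock gene Cryab at 8.24 ± 0.16. Against capillary cells, 14 of 35 other immediate-early genes were higher and 3 lower in arterial cells, beside 21.4% and 21% of all genes, and 13 were higher and 8 lower in venous cells, beside 25.6% and 25%, led by the prostaglandin synthase gene Ptgs2 (4.73 ± 0.22) and Myc (3.13 ± 0.30). In cells without Cldn5 UMIs 1 of 30 other immediate-early genes was higher, and 2 of 26 other chaperones and 1 of 17 stress genes were lower than in cells with them, beside 1.24% of all genes higher and 1.55% lower.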

How the data were processed

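The deposited files are filtered 10x matrices of UMI counts per gene and cell, 1 per library, deposited by the authors: per the file headers the software was Cell Ranger 6.1.1, and per the submitters' processing notes the build was mm10; no normalization is in them. Barcodes with at least 1000 UMIs, 500 genes and at most 15% mitochondrial counts were kept. The expected doublets (0.8% per 1000 barcodes, ranked by Scrublet score) were removed. So were 1349 single barcodes in which at least 50% of the markers of an unrelated class were detected. Cells were clustered with scanpy 1.11.5 (2000 variable genes, 40 components, 20 neighbours, Leiden resolution 1) without the 32 genes, Cldn5, Gm42418 and mitochondrial genes. A cluster was named where at least 3 markers of a type were detected, and endothelial zones were assigned at a class probability of at least 0.6 by a classifier. It was trained on the control cells with the strongest zone marker signal (5% per library for arterial and venous, 10% for capillary). With each control library held out in turn, 99.2% of these cells were put in their own zone. The markers were not kept out of the classifier and other cells have no known zone, so its accuracy for them is not known.

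Raw counts were summed per library and class, zone or Cldn5 state where at least 20 cells were present, and tested over all genes past edgeR's low-count filter with edgeR 4.0.16 (quasi-likelihood, TMM factors, robust) in R 4.3.3; called means a Benjamini-Hochberg adjusted p under 0.05 over all genes tested. The library is the block in class and zone comparisons. Levels are CPM with TMM factors, and they differ slightly between comparisons because each has its own factors. Alternatives were DESeq2 1.42.0, other size factors, no low-count filter, stricter cells (2000 UMIs, 5% mitochondrial), doublets kept, members kept in clustering, counts without Gm42418 and mitochondrial genes, each library left out, and the replicate number as a block. Libraries of the same number correlated in their deviations from the group means (r of 0.434, 0.525 and 0.497 over 13301 genes; 0.418, 0.461 and 0.478 over 13293 genes without sex-linked and rRNA-linked genes), so the numbers pair the libraries, as read from the data and not from the labels. Standard errors cover the spread between libraries, or, in the Cldn5 split, between library and zone pairs of 3 libraries. The members, their groups and the 4 lists of related genes were chosen with earlier results of these data known. All members could be named: 16 have values in every library for endothelial cells, as does any member past the threshold by genotype, and in class and zone comparisons the 5 largest called each way have full values. Csrnp1 and Hsph1 were added to these after their values were seen.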

Additional observations from a re-analysis of the deposited data

Results flagged for a closer look

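The genotype effect on Egr2 differed between arterial and capillary cells in edgeR's test of the difference itself, but not under every setting. In arterial cells Egr2 had 1.45, 3.63 and 1.78 CPM in iECKO libraries, against 1.73, 11.8 and 7.17 CPM in control libraries, and its log2 fold change there minus that in capillary cells was -2.42 (edgeR adjusted p = 0.039). It rests on 4 to 34 arterial UMIs per library. DESeq2 gave no adjusted p (-2.22, unadjusted p = 0.0018), and the call was lost with the members kept in clustering (-2.46, adjusted p = 0.064), without iECKO library 1 and without each control library in turn.

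The genotype effect on Maff differed between venous and capillary cells by the same kind of test. Maff had 91.4, 39.7 and 21.8 CPM in venous cells of iECKO libraries, against 26.9, 25.5 and 21.8 CPM in those of control libraries, and its log2 fold change there minus that in capillary cells was -0.85 (edgeR adjusted p = 0.003). In both zones iECKO library 1 was the highest. The Apln-led subcluster held 68.8%, 31.1% and 7.79% of capillary cells with at least 2 Cldn5 UMIs in iECKO libraries 1, 2 and 3. It held 19.5%, 3.23% and 2.17% of such venous cells. In control libraries it held 0.952%, 0.849% and 0.717% of such capillary cells. The part of this make-up in the Maff difference was not tested.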

How the results depend on the processing

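Alternatives were run for the numbers of members called, the fold changes of the members named by rule and the summed shares; correlations between genes, promoter counts and, apart from the block, the lists of related genes have 1 setting each. Adjusted p-values that DESeq2 left undefined are not counted. Of 640 class and zone values of single members 618 kept direction and call and 22 lost the call; of 175 in the Cldn5 split 146 kept both and 29 lost the call; of 462 by genotype 422 kept both, 24 gained a call and 16 changed sign. By genotype, the number of members called was 0 in each class and zone, where edgeR called 2 of all genes in endothelial cells. With DESeq2 it became 2 in endothelial and 4 in capillary cells (156 and 296 over all genes). The replicate block gave 1 in endothelial, 5 in arterial, 2 in venous cells and 3 in pericytes (197, 221, 60 and 21 over all genes). It changed no other call. Without the low-count filter it was 2 in arterial and 1 in capillary cells (115 and 243 over all genes). With stricter cells only 1 iECKO and 2 control libraries had pericyte sums, so no count is given there. For the difference between zones the 1 arterial member called became 10 without the filter and 0 with members kept in clustering (273 and 37 over all genes, from 46). The 1 venous member became 2 with DESeq2, 9 without the filter and 2 with stricter cells (77, 331 and 65 over all genes, from 110). For the difference between classes the 0 called became 2 in microglia and 1 in pericytes without the filter (38 and 20 over all genes, from 12 and 8). In microglia it became 1 with stricter cells (35 over all genes). By replicate number the 7 became 16 with DESeq2 and 12 without the filter (1671 and 3483 over all genes, from 1796). In the Cldn5 split the 11 became 17 without the filter and 4 with cells thinned to 2000 UMIs. Over all genes 419 and 100 were called there, from 108 higher and 135 lower. The cause of these changes was not tested.

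Leaving out 1 library gave 0 to 3 members called in capillary cells, 0 to 1 in pericytes and 0 to 1 in microglia by genotype, 0 to 4 (arterial) and 1 to 4 (venous) for the difference between zones, 0 to 1 for the difference between classes in microglia and in pericytes, and 5 to 18 by replicate number. In endothelial cells it gave log2 fold changes of −0.09 to 0.16 for Dusp1, −0.66 to 0.01 for Hsp90aa1, −1.40 to 0.11 for Hsph1, −0.28 to 0.12 for Junb, −0.10 to 0.01 for Klf6, −0.24 to 0.34 for Nr4a1, −0.26 to 0.22 for Socs3 and −0.29 to 0.06 for Zfp36, and −1.41 to 0.40 for Hspb1 in pericytes. Dusp1 was 0.00 with doublets kept and 0.01 with the block, and Socs3 0.04 with stricter cells. Thinned to 4000 UMIs, endothelial cells held 0.943% immediate-early UMIs. Genotype in smooth muscle cells, and smooth muscle against endothelial cells, could not be fitted with stricter cells. Pericyte sums of 39 to 83 cells limit what could be detected there.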

Other observations

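Endothelial cells were also split into 9 finer subclusters, named here by a leading gene only. The summed immediate-early share averaged 1.69 ± 0.218% of UMIs in the Fbln5-led, 1.65 ± 0.285% in the Lrg1-led, 1.40 ± 0.107% in the Plvap-led and 1.24 ± 0.129% in the F5-led subcluster (SD, n = 6 libraries). It averaged 0.965 ± 0.140% in the Olfm5-led, 0.860 ± 0.123% in the Gkn3-led, 0.819 ± 0.0754% in the Ttr-led and 0.782 ± 0.0839% in the Apln-led subcluster. The Gm26917-led subcluster held the least, 0.315 ± 0.0635%, between 0.242% and 0.422%, with no library overlapping any library of the other 8. Its cells also had Gm42418 shares of 16.5, 21.7 and 8.23% in iECKO libraries and 17.1, 27.3 and 9.12% in control libraries, higher in every library than in the Apln-led subcluster (8.44, 15.6 and 2.59% in iECKO libraries and 8.11, 16.2 and 2.52% in control libraries). The part of this transcript in the lower share was not tested.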
